A study of Mus musculus with 30 samples.

Results

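The genes described here encode lysosomal hydrolases, their cofactors, proteins of the lysosomal membrane and the transcription factors Tfeb and Tfe3. They were chosen by symbol, and 32 of the 32361 Ensembl gene IDs of the deposited count table carried those symbols. All 32 were found and all 32 passed the filter on low counts. RNA was sequenced from mouse bone marrow-derived macrophages, which are primary macrophages grown from marrow with L929-conditioned medium as the source of M-CSF. The cells came from C57BL/6J wild-type mice (WT) or from Ticam2-/- mice (KO). They were left untreated, or received 10 ng/mL of lipopolysaccharide (LPS) or 100 ng/mL of lipoteichoic acid (LTA), each during 2 h or 6 h. This gave 10 groups of 3 libraries, each replicate from 1 animal. The replicate numbers were read as 3 WT and 3 KO animals in all. The labels do not say outright that a number is the same animal in every treatment. The labels name the genotype without saying which exons were removed or in which cells, and the sources used here give neither age nor sex of the animals.

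Lysosomes are acidic compartments in which hydrolases break down proteins, glycans and lipids taken up by phagocytosis or delivered by autophagy. Macrophages hold many of them, and cathepsins and legumain there also cut antigens and process one another. TFEB and TFE3, of the MiT family, move to the nucleus when the nutrient kinase mTORC1 is inactive and bind CACGTG-containing motifs in front of many lysosomal genes. LPS is sensed by TLR4 and LTA by TLR2. Ticam2 encodes TRAM, the adaptor that links internalised TLR4 to TRIF.

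Depth was 10641070 to 13521660 counts in the 18 libraries that were untreated or treated for 6 h. The 12 libraries of 2 h form a separate, shallower set of 1334784 to 2658329 counts. A member had 4 to 86048.5 counts in a library. Ticam2 itself stood at 10.3 to 21.0 CPM (counts scaled to a common library size) in the WT libraries and at 0.408 to 5.27 in the KO libraries, with no overlap. Macrophage markers summed to 23908 to 31841 CPM in every group. Erythroid markers, chiefly globins, summed to 5010 to 10893 CPM in the deeper set and to 0 to 0.425 CPM in the 2 h set. Levels below are CPM after TMM scaling, which sets library factors so that the typical gene does not move. A second fit used total counts alone. The choice matters here: the mean TMM factor was 0.699 in WT LPS 6 h and 0.748 in WT LTA 6 h, against means of 1.00 to 1.15 in the other 8 groups. In WT at 6 h of LPS the median of all 15119 tested genes was a log2 change of 0.03 with TMM and -0.66 with total counts, and the members moved by -0.70 between the scalings. The same shift was -0.60 for WT with LTA, -0.19 for KO with LPS and -0.18 for KO with LTA. A gene was called at an adjusted p under 0.05 by the quasi-likelihood test of edgeR, adjusted by Benjamini-Hochberg over all tested genes, and errors of log2 changes are standard errors. In bulk RNA, fewer cells that express a gene and less of its RNA per cell cannot be told apart.

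The 32 genes together took 3.185, 3.23 and 3.19% of the counts in untreated WT libraries. After 6 h this share was 2.073, 2.145 and 2.115% with LPS and 2.03, 2.03 and 2.015% with LTA. In KO libraries it was 3.392, 3.37 and 3.377% untreated, 2.961, 2.933 and 2.918% with LPS, and 2.985, 2.961 and 2.976% with LTA. The share was therefore lower in every 6 h library than in every untreated library of its genotype, and lower in WT than in KO at 6 h. In the 2 h set it was 2.989 to 3.222%, with WT and KO overlapping. A share of counts carries no TMM correction and moves with whatever else a library holds.

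**Figure D1:**
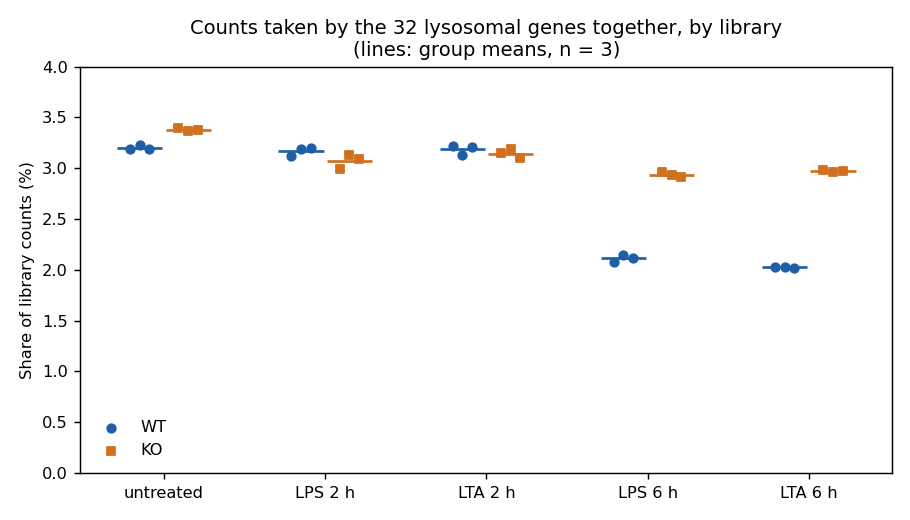
Share of library counts (%, y axis) taken by the 32 lysosomal genes in each of the 30 libraries, by condition (x axis) and genotype, with lines at the group means (n = 3). The 6 WT libraries of 6 h lie at 2.015 to 2.145%, below all others.

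Tfeb (ENSMUSG00000023990, chr17:47737030-47792419, GRCm38, plus strand) had the largest change of the members in WT. Its level was 19.7, 18.8 and 18.1 CPM in untreated WT libraries, listed by replicate. With LPS for 6 h it was 2.8, 3.28 and 3.15 CPM, and with LTA 2.33, 2.49 and 2.93 CPM. All 6 WT libraries treated for 6 h were thus far below the untreated ones. KO libraries held 20.8, 22.5 and 20.1 CPM untreated, 20.9, 18.1 and 19.3 with LPS, and 18.9, 18.9 and 16.9 with LTA. In KO the LPS values overlapped the untreated ones and the LTA values were slightly below them. The log2 change in WT was -2.61 ± 0.13 with LPS (edgeR adjusted p = 1.1e-25) and -2.86 ± 0.13 with LTA (edgeR adjusted p = 4.6e-27). The KO value was -0.12 ± 0.07 with LPS, which was not called (edgeR adjusted p = 0.17), and -0.21 ± 0.08 with LTA (edgeR adjusted p = 0.018). With total counts the KO changes were -0.32 ± 0.08 and -0.39 ± 0.08, both called, and the WT changes -3.31 ± 0.12 and -3.46 ± 0.13. The genotype difference in the response was 2.49 ± 0.15 with LPS (edgeR adjusted p = 1.1e-20) and 2.65 ± 0.16 with LTA (edgeR adjusted p = 5.1e-21). Each WT library of 6 h lay below each KO library of 6 h.

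Tfe3, the related factor, moved the other way. Its level was 79.6, 87.3 and 78.0 CPM in untreated WT, 110, 105 and 110 with LPS, and 102, 104 and 102 with LTA. KO libraries held 78.1, 83.1 and 80.1 CPM untreated, 120, 117 and 114 with LPS, and 117, 124 and 127 with LTA. Treated libraries lay above untreated ones in both genotypes on this scale. The rise was 0.41 ± 0.05 with LPS and 0.33 ± 0.05 with LTA in WT under TMM, but the sign flipped to -0.29 ± 0.05 and -0.27 ± 0.05 under total counts. In KO it was 0.54 ± 0.05 and 0.61 ± 0.05 under TMM and stayed positive under total counts, at 0.35 ± 0.05 and 0.43 ± 0.05. KO exceeded WT after LTA by 0.25 ± 0.05 (edgeR adjusted p = 2e-05), and after LPS by 0.11 ± 0.05, which was not called (edgeR adjusted p = 0.054). Under total counts these differences were 0.69 ± 0.05 and 0.63 ± 0.05, both called.

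**Figure D2:**
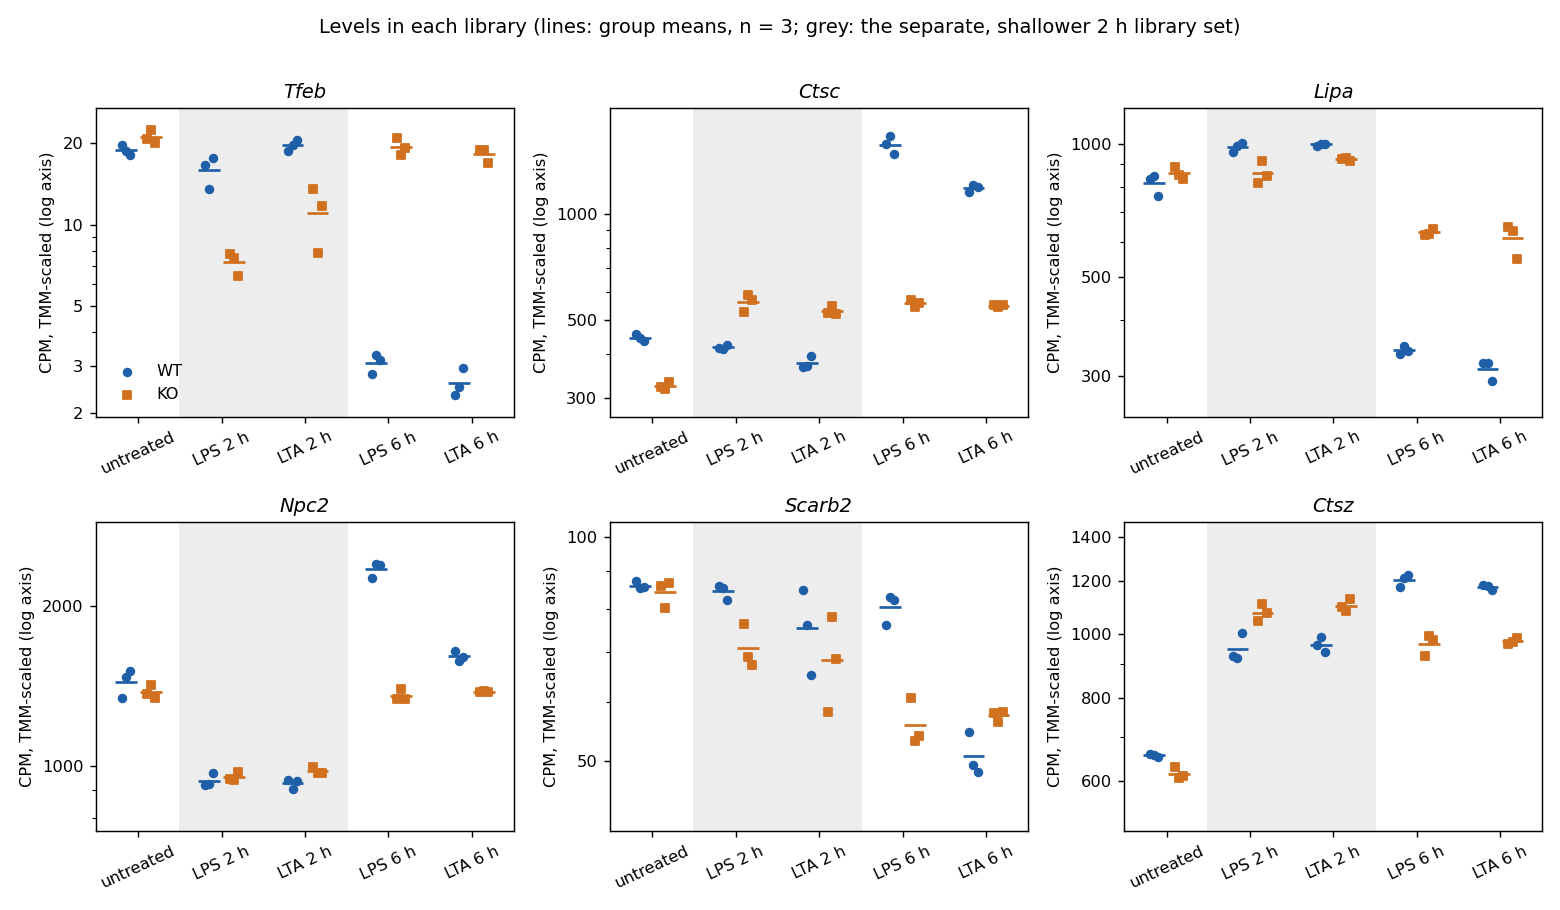
Level (CPM after TMM scaling, log y axis) of Tfeb, Ctsc, Lipa, Npc2, Scarb2 and Ctsz in every library by condition (x axis), with WT as circles, KO as squares and lines at group means (n = 3). The WT libraries of 6 h stand apart from KO for Tfeb (2.33 to 3.28 CPM) and Lipa (291 to 349 CPM), and grey marks the 2 h set.

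CACGTG was searched for on both strands (it is its own reverse complement) in RefSeq promoters of GRCm38.p6, from 250 bases before to 50 after each annotated start. A promoter was found for 29 of the 32 members, and Asah1, Ctsh and Ctsb had none in the table. CACGTG was present for 9 of the 29 genes (31%), against 11.8% of the 9803 tested genes with a promoter and 8.09% of all 27025. The longer TCACGTG, which contains it, was present for 8 (27.6%), against 7.03% and 4.29%. The holders were Ctsa, Ctsd, Ctsl, Lgmn, Gaa, Gla, Glb1, Lamp1 and Mcoln1. It lay within 100 bases before the start in 6 of them, Ctsa, Ctsd, Lgmn, Glb1, Lamp1 and Mcoln1. Of these 6, 4 are shown as examples: Lamp1 and Mcoln1, membrane proteins with several copies, and the hydrolases Ctsd and Glb1 with 1 copy each. Capitals mark CACGTG, and each line runs 5′ to 3′ on the gene's strand, ending at the base before the start.
Lamp1 (chr8:13159061-13159160, plus strand): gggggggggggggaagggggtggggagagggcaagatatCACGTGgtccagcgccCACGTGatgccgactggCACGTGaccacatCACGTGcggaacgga
Mcoln1 (chr8:3500419-3500518, plus strand): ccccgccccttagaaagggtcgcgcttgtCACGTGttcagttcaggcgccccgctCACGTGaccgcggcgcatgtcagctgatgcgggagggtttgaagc
Ctsd (chr7:142387828-142387927, minus strand): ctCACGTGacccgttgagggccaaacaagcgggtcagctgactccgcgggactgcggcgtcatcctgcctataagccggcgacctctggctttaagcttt
Glb1 (chr9:114400978-114401077, plus strand): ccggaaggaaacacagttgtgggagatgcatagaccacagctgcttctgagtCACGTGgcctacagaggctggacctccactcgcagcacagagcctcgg
In Lamp1 the copies begin at positions -61, -45, -28 and -15 from the start, and in Mcoln1 at -71 and -45. After 6 h of LPS in WT the 9 genes with CACGTG had log2 changes of -0.30 to 0.23 (median -0.06, TMM). The 20 without it had -2.61 to 1.82 (median 0.02), a range that includes Tfeb itself. With LTA the ranges were -0.53 to 0.27 (median -0.17) and -2.86 to 1.41 (median -0.09). A match is a description of these letters and says nothing of binding.

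Across all members, LPS for 6 h in WT gave 9 higher and 12 lower calls under TMM, where 36.6% of tested genes were higher and 36.1% lower. Under total counts it gave 2 and 29, against 16.2% and 63.7%. LTA in WT gave 7 higher and 18 lower under TMM (35.4% and 35.9% of genes) and 2 and 30 under total counts (15.7% and 62.3%). In KO, LPS gave 5 higher and 10 lower under TMM (25.7% and 26.6%) and 3 and 26 under total counts (15.6% and 41.9%). LTA in KO gave 5 and 11 under TMM (25.7% and 26.5%) and 4 and 25 under total counts (16.4% and 41%). The LPS and LTA responses of a genotype share their untreated libraries. The median member changed under TMM by -0.04 and -0.16 in WT and by -0.04 and -0.02 in KO, with LPS and LTA respectively, beside 0.03, 0.01, 0.01 and 0.00 over all tested genes. On this scale 26 of 32 log2 changes were below 0.5 in size in each WT response and 28 of 32 in each KO response. Under total counts 7 of 32 were below 0.5 in WT with LPS and 6 with LTA, and 28 in each KO response. The share of all genes below 0.5 was not counted. Called in the same direction under both scalings in WT with LPS were Ctsc and Ctsz as higher and 12 genes as lower. Another 6 were called in opposite directions there, namely Ctss, Glb1, Man2b1, Grn, Lamp2 and Tfe3. How many of all genes were called alike or in opposite directions by the scalings was not counted. The number of higher calls with LPS in WT was 15 with relative log expression factors and 14 with DESeq2, and the number of lower calls was 21 with upper quartile factors. In KO with LPS the 5 higher calls became 3 without KO LPS 6 h replicate 2 or without untreated KO replicate 1.

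**Figure D3:**
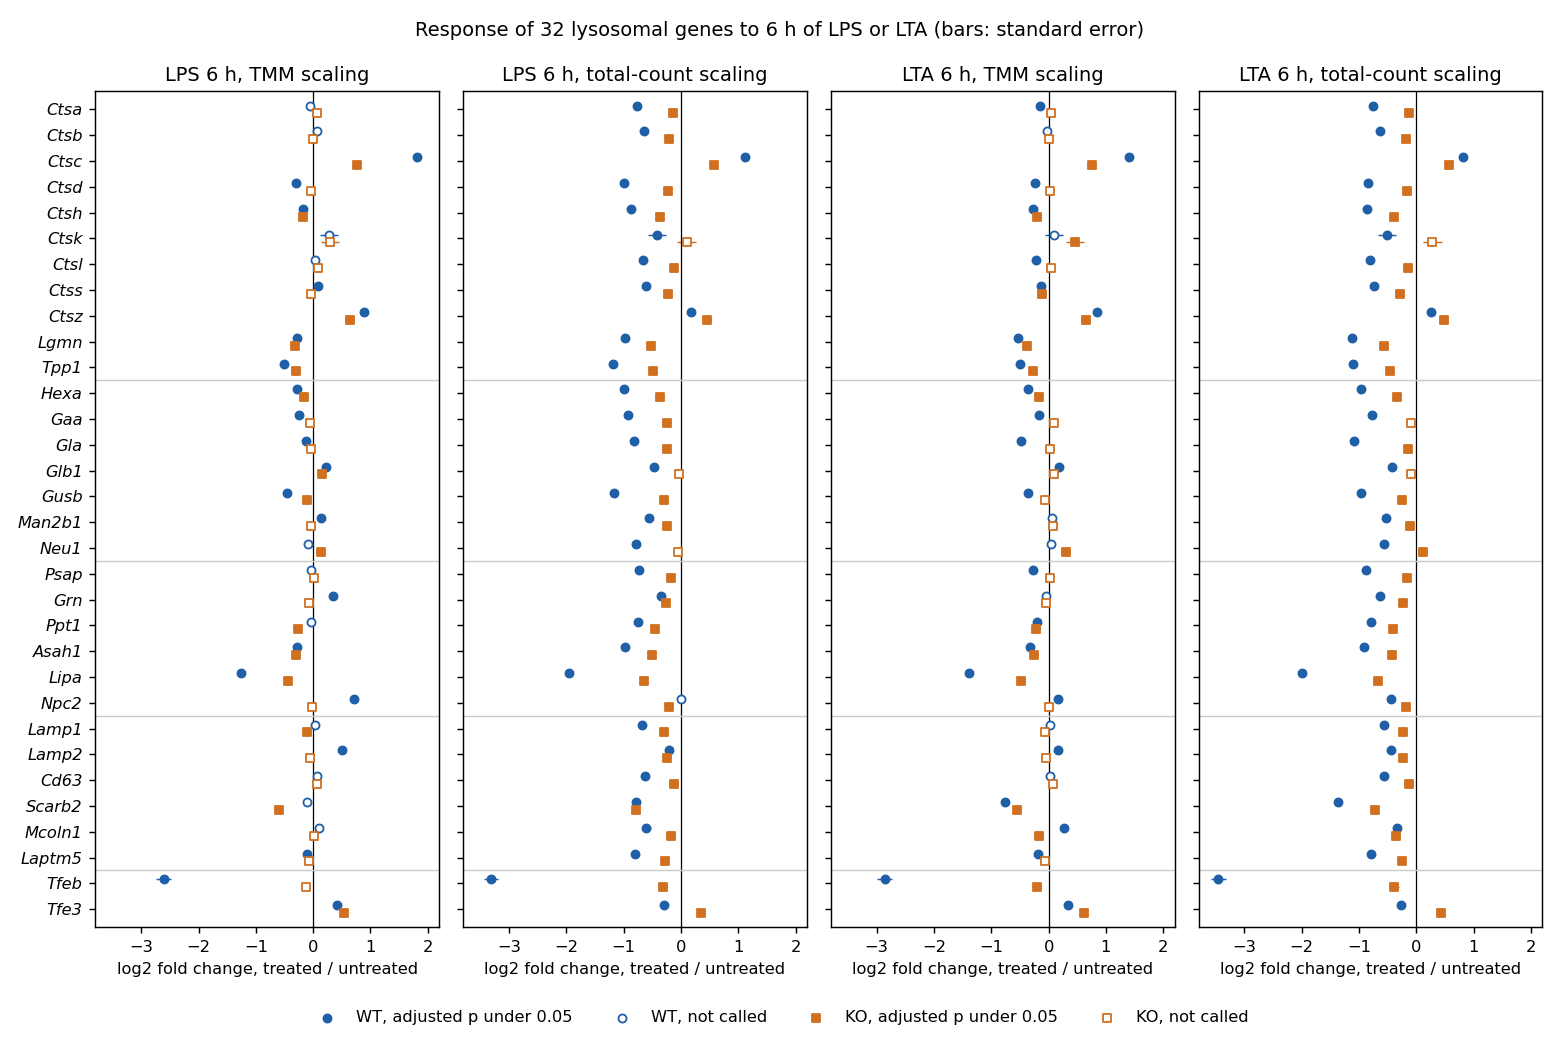
Log2 change (x axis, with standard errors) of each of the 32 genes after 6 h of LPS or LTA against untreated cells, in WT (circles) and KO (squares), under TMM and total-count scaling. Filled symbols are called, and under total counts the WT points lie to the left of those under TMM by 0.70 with LPS and by 0.60 with LTA (n = 3 libraries per group).

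Among the 11 peptidases, Ctsc and Ctsz rose in both genotypes. Ctsc (ENSMUSG00000030560, chr7:88278085-88310888, plus strand) encodes cathepsin C, a dipeptidyl peptidase that activates granule serine proteases. It stood at 455, 445 and 434 CPM in untreated WT, 1569, 1655 and 1475 with LPS, and 1152, 1204 and 1187 with LTA. KO libraries held 322, 319 and 334 CPM untreated, 567, 544 and 559 with LPS, and 549, 544 and 551 with LTA. At 6 h every treated WT library exceeded every treated KO library. The rise was 1.82 ± 0.04 with LPS and 1.41 ± 0.04 with LTA in WT, compared with 0.77 ± 0.04 and 0.75 ± 0.04 in KO. The response was smaller in KO by -1.04 ± 0.06 with LPS (edgeR adjusted p = 4e-23) and by -0.66 ± 0.06 with LTA (edgeR adjusted p = 6.4e-15). Total counts gave rises of 1.12 and 0.81 in WT and 0.58 and 0.57 in KO, and genotype differences of -0.54 and -0.24, both called. Cst7, which encodes cystatin F, an inhibitor of cathepsin C, rose in WT by 3.13 ± 0.11 with LPS and 1.94 ± 0.13 with LTA. In KO its changes of 0.22 ± 0.17 and 0.24 ± 0.17 were not called.

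Ctsz (ENSMUSG00000016256, chr2:174427493-174439039, minus strand), the carboxypeptidase cathepsin Z, was at 658, 656 and 653 CPM in untreated WT, 1177, 1213 and 1227 with LPS, and 1186, 1180 and 1164 with LTA. KO libraries held 630, 606 and 610 CPM untreated, 926, 993 and 980 with LPS, and 966, 973 and 984 with LTA. Its rise was 0.88 ± 0.04 and 0.84 ± 0.04 in WT and 0.65 ± 0.04 and 0.66 ± 0.04 in KO, with LPS and LTA. The larger WT response holds under TMM only: under total counts WT rose by 0.18 and 0.25 and KO by 0.46 and 0.48. There the genotype difference changed sign and was called for both ligands.

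Lgmn, the asparaginyl endopeptidase that processes cathepsins, was at 460, 455 and 451 CPM in untreated WT, 371, 386 and 363 with LPS, and 318, 315 and 311 with LTA. KO libraries held 517, 506 and 514 CPM untreated, 407, 409 and 412 with LPS, and 394, 391 and 394 with LTA. It fell in all 4 responses, by -0.29 ± 0.04 and -0.53 ± 0.04 in WT and by -0.32 ± 0.04 and -0.38 ± 0.04 in KO. Tpp1, a tripeptidyl peptidase lost in a childhood neuronal ceroid lipofuscinosis, had 310, 324 and 319 CPM in untreated WT, 217, 238 and 222 with LPS, and 221, 223 and 230 with LTA. Its KO levels were 329, 328 and 337 CPM untreated, 271, 275 and 262 with LPS, and 289, 265 and 269 with LTA. Tpp1 fell in all 4 responses too, by -0.50 ± 0.04 with each ligand in WT and by -0.30 and -0.27 in KO.

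Ctsd, the aspartic cathepsin D, had 4103, 4246 and 4179 CPM in untreated WT, 3255, 3514 and 3400 with LPS, and 3449, 3628 and 3502 with LTA. KO libraries held 4873, 4816 and 4732 CPM untreated, 4494, 4780 and 4797 with LPS, and 4902, 4824 and 4887 with LTA. It fell in WT by -0.30 ± 0.04 and -0.24 ± 0.04, whereas the KO changes of -0.04 and 0.02 were not called under TMM. Ctsh, an aminopeptidase, had 136, 145 and 133 CPM in untreated WT, 109, 128 and 131 with LPS, and 113, 117 and 114 with LTA. Its KO levels were 106, 112 and 116 CPM untreated, 97.9, 101 and 97.2 with LPS, and 95.4, 96 and 96.5 with LTA. The fall in Ctsh was -0.17 and -0.27 in WT and -0.17 and -0.21 in KO, all called. Ctsl, the endopeptidase cathepsin L, was at 1300, 1251 and 1260 CPM in untreated WT, 1262, 1322 and 1334 with LPS, and 1095, 1077 and 1109 with LTA. Its KO levels were 986, 992 and 962 CPM untreated, 998, 1062 and 1039 with LPS, and 1008, 1006 and 1007 with LTA. Of these 4 Ctsl responses 1 was called under TMM, a fall of -0.22 ± 0.04 in WT with LTA. Under total counts all 4 were called lower, at -0.66 and -0.81 in WT and -0.12 and -0.14 in KO. Ctsk, the cathepsin of osteoclasts, was at 2.23 to 6.42 CPM over all 30 libraries and rested on 4 to 78 counts a library. Its rise in KO with LTA (0.46 ± 0.15, edgeR adjusted p = 0.01) was not called under total counts. For Ctsa, Ctsb and Ctss the log2 changes in the 4 responses were -0.15 to 0.09 under TMM.

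The 7 glycosidases had log2 changes below 0.5 in size in every 6 h response under TMM. With LPS in WT 2 were higher and 4 lower under TMM, and with LTA 1 and 4. Under total counts all 7 were lower in both, where most of all tested genes were called lower too. The shares of all genes are those given above with the counts over all members. Gusb, which removes glucuronic acid residues, was at 286, 289 and 291 CPM in untreated WT, 201, 219 and 208 with LPS, and 217, 227 and 228 with LTA. KO libraries held 316, 320 and 328 CPM untreated, 295, 299 and 306 with LPS, and 307, 307 and 302 with LTA. Its fall was -0.46 ± 0.04 and -0.36 ± 0.04 in WT. In KO it was -0.10 ± 0.04 with LPS, and -0.07 with LTA, which was not called under TMM. Under total counts the KO values were -0.29 and -0.25, both called. Gla, alpha-galactosidase A, had 77.1, 74.9 and 68.8 CPM in untreated WT, 65.4, 68.9 and 68.3 with LPS, and 52.6, 51.6 and 52.9 with LTA. KO libraries held 77.2, 69.8 and 80.9 CPM untreated, 72.0, 76.8 and 72.8 with LPS, and 76.5, 79.5 and 76.5 with LTA. The fall of -0.49 ± 0.06 with LTA in WT was 1 of 2 Gla calls under TMM, the other being -0.13 ± 0.06 with LPS in WT. Under total counts Gla was called lower with LPS and LTA in both genotypes, at -0.82 and -1.09 in WT and -0.24 and -0.15 in KO.

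Gaa, which degrades glycogen, had 49.2, 47.2 and 48.4 CPM in untreated WT, 41.6, 39.3 and 42.0 with LPS, and 45.2, 40.0 and 43.8 with LTA. In KO it had 55.1, 51.0 and 53.8 CPM untreated, 50.7, 50.9 and 53.2 with LPS, and 57.2, 55.2 and 57.3 with LTA. Gaa fell in WT by -0.24 and -0.17 under TMM. In KO under total counts it fell by -0.24 with LPS, which was called, and its -0.10 with LTA was not called. Neu1, the sialidase that works in a complex with cathepsin A, had 65.6, 70.9 and 68.5 CPM in untreated WT, 62.4, 62.8 and 66.7 with LPS, and 72.4, 66.2 and 71.6 with LTA. Its KO levels were 67.3, 74.2 and 66.1 CPM untreated, 74.1, 76.5 and 77.9 with LPS, and 86.7, 84.0 and 85.6 with LTA. Neu1 rose in KO by 0.14 with LPS and by 0.30 with LTA under TMM. Under total counts it was -0.05 with LPS, not called, and 0.12 with LTA, called. Glb1, beta-galactosidase, was at 52.4, 56.6 and 57.9 CPM in untreated WT, 67.8, 64.1 and 63.2 with LPS, and 58.8, 65.3 and 64.9 with LTA. KO libraries held 58.6, 62.7 and 57.3 CPM untreated, 68.6, 67.1 and 62.3 with LPS, and 64.4, 61.9 and 63.7 with LTA. Its changes of 0.09 to 0.23 under TMM turned to -0.47 to -0.04 under total counts. Hexa fell in all 4 responses, by -0.36 to -0.16, and the values for Man2b1 were -0.04 to 0.14.

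Of the 6 genes for lipid handling and activator proteins, Lipa fell most. Lipa (ENSMUSG00000024781, chr19:34492318-34527474, minus strand) encodes lysosomal acid lipase, which hydrolyses cholesteryl esters and triglycerides. It stood at 834, 847 and 763 CPM in untreated WT, 336, 349 and 341 with LPS, and 320, 321 and 291 with LTA. KO libraries held 888, 851 and 833 CPM untreated, 623, 627 and 643 with LPS, and 648, 637 and 551 with LTA. At 6 h the groups formed a clear order, with WT lowest, KO between and untreated cells highest, and no overlap. The fall was -1.25 ± 0.05 and -1.39 ± 0.05 in WT, compared with -0.44 ± 0.04 and -0.49 ± 0.04 in KO. The genotype difference in the response was 0.81 ± 0.06 with LPS (edgeR adjusted p = 3e-16) and 0.91 ± 0.06 with LTA (edgeR adjusted p = 7.1e-18). Total counts gave falls of -1.95 and -1.99 in WT and -0.64 and -0.67 in KO.

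Npc2 (ENSMUSG00000021242, chr12:84754562-84773152, minus strand), the luminal protein that binds cholesterol once it is freed, was at 1340, 1468 and 1506 CPM in untreated WT. It was at 2256, 2394 and 2390 CPM with LPS and 1647, 1576 and 1605 with LTA. KO libraries held 1367, 1422 and 1344 CPM untreated, 1339, 1397 and 1335 with LPS, and 1375, 1384 and 1377 with LTA. At 6 h WT with LPS was highest and WT with LTA just above untreated WT, both without overlap, and the KO groups overlapped. The change in WT was 0.71 ± 0.04 with LPS and 0.16 ± 0.04 with LTA under TMM, but 0.01 ± 0.03 (not called) and -0.44 ± 0.03 under total counts. In KO it was -0.02 and 0.00 under TMM, neither called, and -0.21 and -0.18 under total counts, both called.

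Psap, the precursor of the saposins that help degrade sphingolipids, had 1472, 1583 and 1565 CPM in untreated WT, 1466, 1575 and 1481 with LPS, and 1258, 1271 and 1282 with LTA. In KO it had 1831, 1780 and 1781 CPM untreated, 1823, 1799 and 1832 with LPS, and 1869, 1798 and 1789 with LTA. A fall of -0.28 ± 0.04 with LTA in WT was the Psap response called under TMM. Under total counts Psap was called lower in all 4 responses, at -0.73 and -0.88 in WT and -0.18 and -0.16 in KO. Asah1, acid ceramidase, had 185, 184 and 179 CPM in untreated WT, 148, 156 and 148 with LPS, and 152, 149 and 140 with LTA. Its KO levels were 184, 187 and 191 CPM untreated, 157, 148 and 151 with LPS, and 159, 158 and 156 with LTA. Asah1 fell in all 4 responses, by -0.32 to -0.25. Its genotype differences in response were -0.02 ± 0.07 and 0.07 ± 0.07 and not called under TMM, but 0.48 ± 0.07 each and called under total counts. Grn, progranulin, rose by 0.35 ± 0.04 with LPS in WT under TMM and fell by -0.35 ± 0.04 under total counts. Ppt1, a thioesterase that removes fatty acids from proteins, fell by -0.20 with LTA in WT and by -0.27 and -0.22 in KO, and its value with LPS in WT was -0.04, not called. Under total counts it fell in all 4 responses.

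Of the 6 membrane proteins, 1 was higher and 1 lower in WT with LPS under TMM, where 36.6% and 36.1% of all genes were. With LTA in WT 2 were higher and 2 lower (35.4% and 35.9% of genes), and in each KO response 0 were higher and 2 lower. Under total counts all 6 were lower in each of the 4 responses. For the KO responses and for total counts, the shares of all genes are those given above with the counts over all members. Scarb2 (ENSMUSG00000029426, chr5:92441314-92506833, minus strand) encodes LIMP-2, which carries glucocerebrosidase to lysosomes. It stood at 87.2, 85.3 and 85.7 CPM in untreated WT, 76.1, 83.1 and 82.4 with LPS, and 54.8, 49.4 and 48.4 with LTA. KO libraries held 86.0, 80.2 and 86.8 CPM untreated, 60.8, 53.2 and 54.0 with LPS, and 58.1, 56.5 and 58.3 with LTA. At 6 h WT with LPS lay just below untreated WT, and the other 3 treated groups lay below both, all without overlap. The change was -0.10 ± 0.06 with LPS (edgeR adjusted p = 0.13) and -0.76 ± 0.06 with LTA in WT, and -0.59 ± 0.06 and -0.55 ± 0.06 in KO. Under total counts Scarb2 fell in all 4, by -0.79, -1.36, -0.79 and -0.73.

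Lamp2, which is needed for autophagosome fusion and chaperone-mediated autophagy, had 524, 513 and 502 CPM in untreated WT, 699, 766 and 715 with LPS, and 556, 582 and 582 with LTA. In KO it had 501, 511 and 510 CPM untreated, 487, 491 and 498 with LPS, and 496, 491 and 489 with LTA. Its WT rise of 0.50 ± 0.04 with LPS and 0.16 ± 0.04 with LTA turned to -0.20 ± 0.04 and -0.44 under total counts. Mcoln1, the calcium channel TRPML1, had 29.9, 30.9 and 33.6 CPM in untreated WT, 36.3, 34.2 and 30.4 with LPS, and 35.5, 38.0 and 40.0 with LTA. Its KO levels were 34.2, 33.2 and 33.7 CPM untreated, 33.9, 33.4 and 34.8 with LPS, and 30.0, 29.1 and 31.1 with LTA. With LTA it was 0.27 in WT and -0.17 in KO under TMM, both called, but -0.33 and -0.35 under total counts. For Lamp1, Cd63 and Laptm5 the values were -0.19 to 0.07 under TMM.

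In untreated cells, 9 members were higher and 4 lower in KO than in WT under TMM, where 5.98% and 7.47% of tested genes were. The 4 lower members were cysteine cathepsins, Ctsc at -0.45 ± 0.04, Ctsl at -0.37 ± 0.04, Ctsh at -0.31 ± 0.05 and Ctss at -0.17. The 9 higher ones, from Ctsb at 0.11 to Lamp1 at 0.27, included Psap, Ctsd and Grn at 0.20 to 0.22. Every one of the 32 differences was below 0.5 in size, with a median of 0.07 (all genes -0.00). Total counts gave 10 higher and 4 lower (6.96% and 6.3%).

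After 6 h of LPS, 13 members were higher and 10 lower in KO than in WT under TMM (32.7% and 30.6% of genes), and 27 and 2 under total counts (61.3% and 14.5%). With LTA the counts were 19 and 8 under TMM (30.5% and 28%) and 30 and 1 under total counts (58.9% and 12.2%). The median member differed under TMM by 0.04 and 0.16, beside 0.01 and 0.01 over all genes. Tfeb was higher in KO by 2.65 ± 0.13 and 2.81 ± 0.13 and Lipa by 0.88 ± 0.05 and 0.98 ± 0.05, with LPS and LTA, and Ctsc was lower by -1.49 ± 0.04 and -1.11 ± 0.04. Ctsd was higher by 0.47 ± 0.04 in each, and Gusb by 0.52 ± 0.04 and 0.45 ± 0.04. Gaa was higher by 0.33 and 0.40. Psap was higher by 0.27 and 0.52, and Gla by 0.13 and 0.56. Npc2 was lower by -0.79 ± 0.04 after LPS on both scalings (-0.27 with total counts), but after LTA it was -0.22 under TMM and 0.21 under total counts. Lamp2 was -0.56 and -0.22 under TMM, against -0.04 (not called) and 0.22 under total counts. After each ligand 6 members were called in opposite directions by the scalings, Ctsh, Ctsl, Ctss and Ctsz in both lists. Called higher in KO under both scalings were 13 members after LPS and 19 after LTA. The shares of all genes called alike or in opposite directions by the scalings were not counted. The comparisons of KO with WT share their WT and KO libraries with the responses above.

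**Figure D4:**
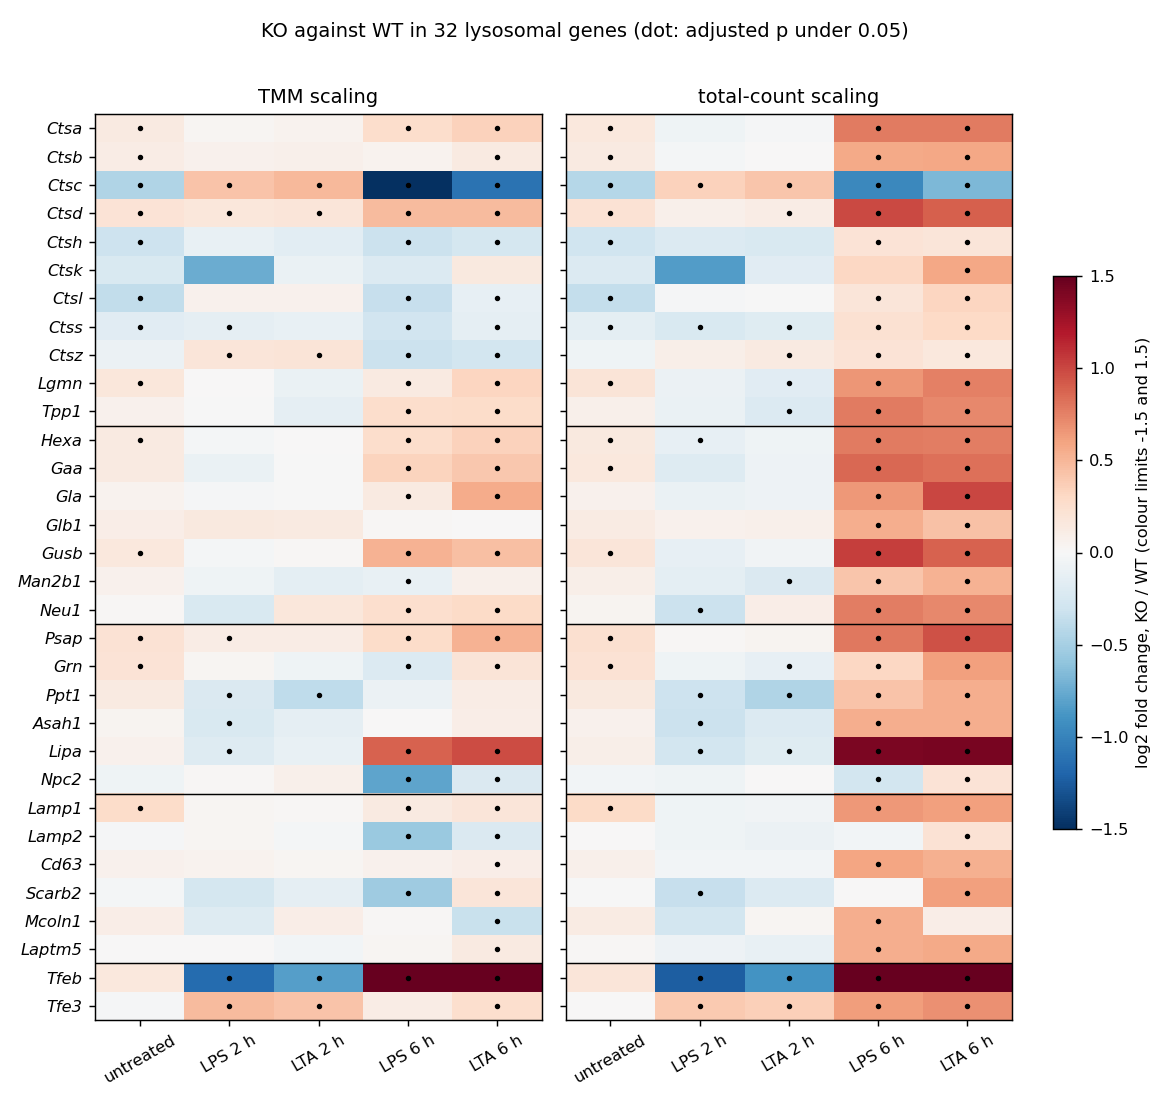
Log2 difference of KO against WT (colour, limits -1.5 and 1.5) for each of the 32 genes (rows) in 5 conditions (columns) under TMM (left) and total counts (right), n = 3 against 3, with dots marking calls. The 6 h columns differ between panels by 0.52 with LPS and 0.44 with LTA, and Tfeb changes sign between 2 h and 6 h.

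The genotype difference in the LPS response was called for 6 members as more positive and 9 as more negative in KO under TMM (27% and 23.5% of genes), and for 27 and 2 under total counts (55.9% and 10.9%). For LTA it was 15 and 5 under TMM (24.8% and 20.1%) and 30 and 1 under total counts (52.7% and 8.35%). Called alike by both scalings with LPS were Ctsd, Tpp1, Gusb, Neu1, Lipa and Tfeb as more positive and Ctsc and Npc2 as more negative. With upper quartile factors the LPS counts were 14 and 5. Without WT LTA 6 h replicate 2 the 15 members of the LTA interaction were 9.

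LPS and LTA were also set against each other within a genotype. In WT at 6 h, 12 members were higher with LPS and 0 lower under TMM (17.9% and 14% of genes). For the lower direction edgeR gave 3 at an unadjusted p under 0.05, and DESeq2 called 1. Total counts gave 10 higher and 6 lower (14.1% and 22.5%). The 10 called by both scalings were Ctsc, Ctsl, Ctss, Lgmn, Gla, Psap, Grn, Npc2, Lamp2 and Scarb2. The sizes ran from 0.23 for Ctss to 0.66 ± 0.06 for Scarb2 (edgeR adjusted p = 3.3e-13), with Npc2 at 0.54 ± 0.04 and Ctsc at 0.41 ± 0.04. Under TMM, every WT library with LPS exceeded every one with LTA in 17 of the 32 members. Under total counts this no longer held for Ctsa, Ctsb, Man2b1, Ppt1, Lipa, Laptm5 and Tfe3 among them. There every WT library with LPS lay below every one with LTA for Ctsd, Ctsz, Tpp1, Gaa, Gusb, Man2b1, Neu1, Lamp1, Cd63 and Mcoln1. The shares of all genes separated in this way, or called by both scalings, were not counted. Tfeb did not differ by a called amount (0.25 ± 0.21).

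In KO at 6 h, edgeR called 0 members in either direction under TMM (1.34% and 1.32% of genes were called higher and lower), with 1 and 3 at an unadjusted p under 0.05, and DESeq2 called 0 and 1. Under total counts 0 were higher and 1, Neu1, was lower (1.19% and 1.63%), at -0.18 ± 0.05. All differences lay between -0.17 and 0.18 under TMM. The difference between genotypes was itself tested: LPS minus LTA was more negative in KO for 12 members and more positive for 1, Mcoln1 (13.5% and 9.14% of genes), and under total counts for 8 and 2 (11% and 15.2%). Scarb2 gave -0.71 ± 0.09 (edgeR adjusted p = 2.1e-09), Npc2 -0.57 ± 0.05, Gla -0.44 ± 0.08, Grn -0.40 ± 0.05 and Ctsc -0.39 ± 0.06.

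**Figure D5:**
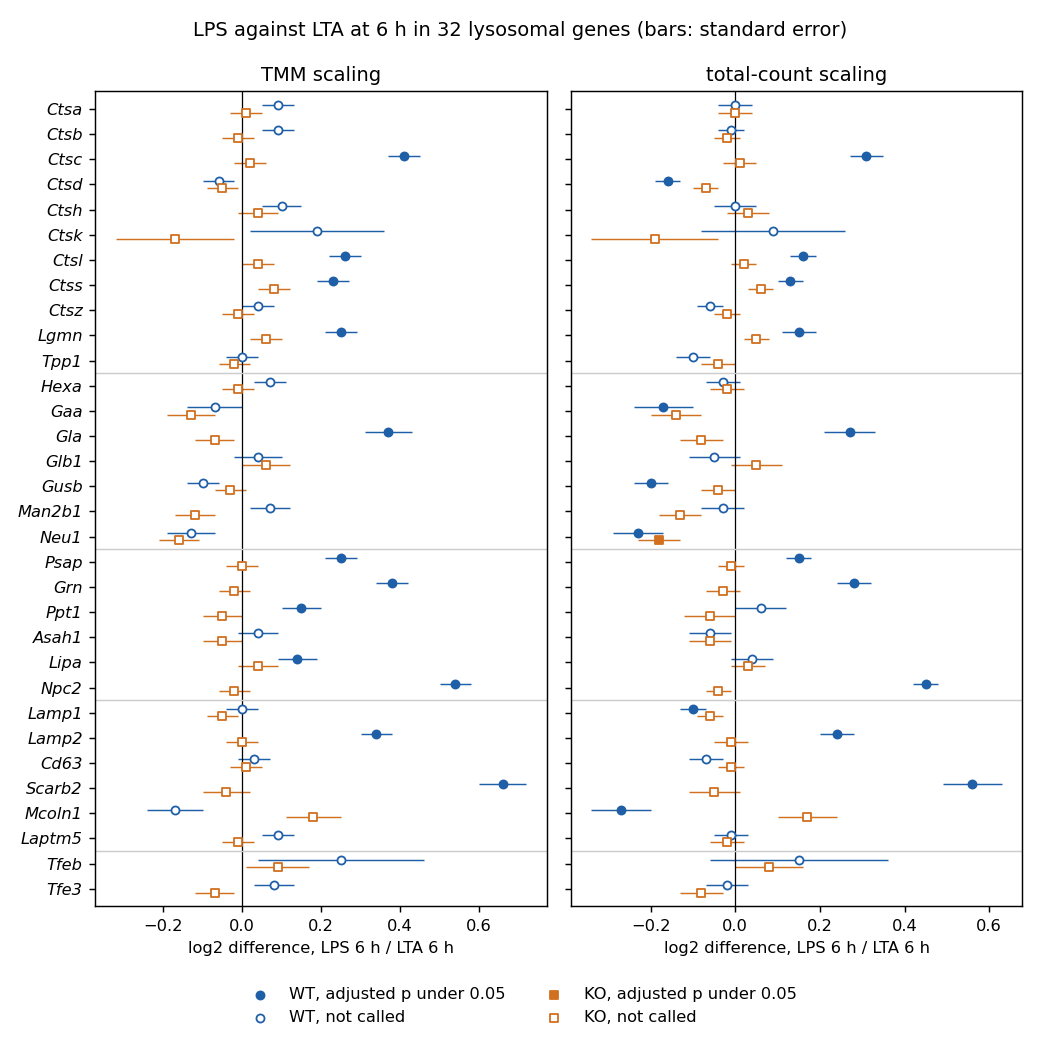
Log2 difference of LPS against LTA at 6 h (x axis, with standard errors) for each of the 32 genes in WT (circles) and KO (squares) under both scalings, with filled symbols called (n = 3 libraries per group). KO values lie between -0.17 and 0.18 under TMM, and WT values reach 0.66 for Scarb2.

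The 2 h libraries can be compared with one another. Against untreated cells they also differ by library set, and the library set and the treatment cannot be told apart there. Within the set, 5 members were higher and 5 lower in KO than in WT after LPS under TMM (9.11% and 7.26% of genes), and 2 and 8 under total counts (6.04% and 9.82%). After LTA 4 were higher and 2 lower under TMM (7.82% and 5.21%), and 4 and 8 under total counts (5.53% and 6.93%). Tfeb was lower in KO at 2 h, the opposite of 6 h. It stood at 16.6, 13.6 and 17.6 CPM in WT with LPS against 7.78, 7.50 and 6.47 in KO, and at 18.8, 19.7 and 20.6 in WT with LTA against 13.6, 7.86 and 11.7 in KO. The differences were -1.16 ± 0.22 (edgeR adjusted p = 7.7e-05) and -0.83 ± 0.20 (edgeR adjusted p = 0.0022), and no WT library overlapped a KO library. A Tfeb value rested on as few as 11 counts in a library.

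Ctsc was also reversed against 6 h. At 2 h it was at 416, 414 and 425 CPM in WT with LPS and 368, 369 and 395 with LTA, against 525, 589 and 568 and 523, 547 and 520 in KO. KO was higher by 0.43 ± 0.05 and 0.49 ± 0.05. Tfe3 was at 90.3, 102 and 96.2 CPM in WT with LPS and 107, 101 and 96.6 with LTA, against 113, 146 and 135 and 131, 147 and 131 in KO, higher by 0.48 ± 0.08 and 0.43 ± 0.08. Ppt1 was lower in KO, at 403, 449 and 434 CPM against 508, 522 and 477 with LPS (-0.22) and at 379, 405 and 401 against 450, 540 and 551 with LTA (-0.38 ± 0.06). Lipa, which was higher in KO at 6 h, was at 816, 916 and 844 CPM in KO and 958, 987 and 1002 in WT with LPS at 2 h, a difference of -0.19 ± 0.05. Without KO LPS 2 h replicate 1 the 5 lower calls after LPS became 3 and the 2 higher calls under total counts became 4. Without KO LTA 2 h replicate 2 the 2 lower calls after LTA became 1, and without WT LTA 2 h replicate 1 the 8 lower calls under total counts became 4.

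Between LPS and LTA at 2 h, edgeR called 0 WT members in either direction under TMM (1.1% and 0.0992% of genes), with 1 and 1 at an unadjusted p under 0.05, and DESeq2 called 0. Under total counts edgeR and DESeq2 also called 0 (1.04% and 0.106% of genes by edgeR), with 1 and 2 at an unadjusted p under 0.05. In KO 1 was higher and 1 lower under TMM (1.14% and 0.258%). Lgmn was the higher one, at 0.19 ± 0.05, and was not called under total counts. Neu1 was lower with LPS, at 60.8, 77.5 and 74.4 CPM against 95.6, 98 and 90.2 with LTA (-0.39 ± 0.09, edgeR adjusted p = 0.0066), and under total counts it was the 1 lower call beside 0 higher (0.41% and 0.9%).

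Against untreated cells of the deeper set, the counts at 2 h under TMM were 14 higher and 9 lower in WT with LPS (19.5% and 25.5% of genes), and 14 and 11 with LTA (19% and 23.9%). In KO they were 13 and 13 with LPS (26.8% and 30.4%), and 11 and 12 with LTA (26.3% and 29.7%). Total counts gave 14 and 9, 14 and 10, 8 and 17, and 10 and 14 for these 4 comparisons (18.9% and 26.1%, 19.1% and 23.9%, 22.4% and 36%, 23.2% and 33.7%). Npc2 was at 907 to 970 CPM in the WT libraries of 2 h and 943 to 997 in KO, below all untreated libraries. Ctsz was at 918 to 1004 CPM in WT and 1044 to 1127 in KO, above all untreated libraries. Erythroid markers differ between the sets as given above, and their part in these values was not tested.

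The other lysosomal genes came from lists of pathway members. Of 31 further enzymes and activators, 4 rose and 20 fell in WT with LPS under TMM (median -0.41), and 1 and 30 under total counts (median -1.10). Of all tested genes 36.6% rose and 36.1% fell under TMM, and 16.2% and 63.7% under total counts. With LTA 3 rose and 21 fell in WT (median -0.44), beside 35.4% and 35.9% of all genes. In KO 6 rose and 19 fell with LPS (median -0.24), beside 25.7% and 26.6% of all genes, and 5 and 19 with LTA (median -0.18), beside 25.7% and 26.5%. These shares of all genes apply to the lists below as well. Sgsh, which degrades heparan sulfate, fell in WT with LPS by -3.38 ± 0.17 and in KO by -1.23 ± 0.10. Pla2g15, a lysosomal phospholipase, fell by -2.43 ± 0.08 and -1.04 ± 0.06, and Dnase2a, which digests DNA of engulfed cells, by -1.33 ± 0.07 and -0.28 ± 0.06. KO exceeded WT after LPS for 20 of the 31 and fell short for 4 under TMM, beside 32.7% and 30.6% of all genes. Under total counts it did so for 30 and 0, beside 61.3% and 14.5%.

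Among 23 tested membrane proteins and transporters, 8 rose and 11 fell in WT with LPS under TMM (4 and 17 under total counts). Slc15a3, a transporter of peptides and histidine, rose by 3.39 ± 0.04 in WT and 2.11 ± 0.04 in KO, and Mcoln2, a relative of Mcoln1, by 2.48 ± 0.05 and 1.71 ± 0.05. Clcn7, the chloride-proton exchanger, rose by 1.58 ± 0.04 and 0.82 ± 0.04. Ctns, the cystine exporter, fell by -2.28 ± 0.08 in WT and by -0.27 ± 0.06 in KO. Of the 18 subunits of the V-ATPase, the proton pump, 8 rose and 6 fell in WT with LPS under TMM and 2 and 16 under total counts. Subunits differed in direction: Atp6v1e1 rose by 1.60 ± 0.04 and Tcirg1 by 1.55 ± 0.05, while Atp6v0a1 fell by -1.01 ± 0.06 and Atp6v1a by -0.53 ± 0.04. In KO the value for Atp6v0a1 was 0.01 ± 0.05 under TMM, not called, and -0.18 ± 0.05 under total counts, called.

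Of 18 other genes for MiT factors and nutrient signalling, 5 rose, 8 fell and 5 were not called in WT with LPS under TMM (median -0.12), and 2 rose and 15 fell under total counts. Tfec, a MiT factor of macrophages, rose by 3.04 ± 0.08 with LPS and 3.99 ± 0.07 with LTA in WT and by 2.34 ± 0.08 and 2.36 ± 0.08 in KO. Mitf rose by 1.44 ± 0.17 in WT with LPS and by 0.49 ± 0.18 in KO. Under total counts the LPS values in WT and KO were 2.34 and 2.15 for Tfec and 0.75 and 0.30 for Mitf. There the Mitf change in KO was not called, nor was the genotype difference in the LPS response of either gene. Rragd, a Rag GTPase, fell in WT with LPS by -2.34 ± 0.21, Lamtor4, a Ragulator subunit, by -1.04 ± 0.07, and Flcn, folliculin, by -0.77 ± 0.07. The KO values of these 3 genes were -0.96 ± 0.12, -0.34 ± 0.06 and -0.16 ± 0.06. Within the MiT family, Tfeb therefore fell in WT while Tfec and Mitf rose on both scalings.

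Markers of other cells moved with some groups. Fibroblast markers summed to 4.49 to 5.06 CPM in untreated WT, and at 6 h in WT to 57.7 to 61.2 after LPS and 100 to 103 after LTA. In KO at 6 h they summed to 8.74 to 13. In the 2 h set they summed to 55.9 to 115 CPM. Osteoclast markers summed to 26.4 to 50.8 CPM over the 18 deeper libraries, with Calcr and Ocstamp at 0 in untreated WT. Erythroid markers summed to 5364 to 5809 CPM in untreated WT and 8550 to 10893 in WT with LPS at 6 h under TMM, but to 6073 to 6579 and 5909 to 7733 under total counts. The part of these cells in the results was not tested.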

How the data were processed

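RNA was measured in 30 libraries, 3 in each of 10 groups. The authors deposited 1 table of estimated counts per Ensembl gene, made with the read trimming, alignment and counting tools named next. Of its values above 0, 25.2% were not whole, and each estimated count was rounded before testing. Per the submitters' processing notes, the tools were fastp 0.24.0, STAR 2.7.11, SAMtools 1.22.1 and featureCounts of Subread 2.1.1, with GRCm38 (mm10). The sources used here give neither strand, RNA selection nor annotation release, so reads of overlapping genes cannot be told apart. Symbols and coordinates came from GENCODE M21 (GRCm38), which named 26304 of 32361 IDs.

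Genes passing edgeR's filterByExpr (minimum count 10, minimum total 15) numbered 15119. edgeR 4.0.16 (R 4.3.3, limma 3.58.1) fitted a robust quasi-likelihood model with 1 coefficient per group over all 30 libraries, with TMM and with total-count scaling. Benjamini-Hochberg adjustment ran over all tested genes and calls were made at 0.05. The fits were tested on simulated data. Alternatives were DESeq2 1.42.0, other scalings, no filter, each library set alone, a replicate block and leaving out each replicate.

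The members and lists were chosen with earlier results of these data known. Values by library are given for the members with the 5 largest rises or falls in any 6 h response or in KO against WT at 6 h, and for Tfeb and Tfe3. In the 2 h set they are given for the members the results turn on. Of each pathway list up to 4 genes with the smallest p in WT with LPS at 6 h are named, and Cst3, Cstb, Mitf, Tfec, Flcn and Sqstm1. A gene that this rule names is not reported here.

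Replicates are separate animals per the labels, and within a genotype the replicate number was read as the animal. Deviations of libraries with the same number correlated at -0.067 to 0.048 within a genotype (36 pairs) and at -0.022 to 0.185 between KO and WT (15 pairs). The labels' harvest text names 6 h alone, while 12 libraries are labelled 2 h.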

Additional observations from a re-analysis of the deposited data

Results flagged for a closer look

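The responses of WT and KO were compared by an interaction term in edgeR's quasi-likelihood model under TMM. Values are KO minus WT differences of log2 responses, each past the Benjamini-Hochberg threshold and in the same direction under total counts.

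For LPS at 6 h the response was more positive in KO for Tfeb (2.49), Lipa (0.81), Gusb (0.36), Ctsd (0.27), Neu1 (0.23) and Tpp1 (0.20), and more negative for Ctsc (-1.04) and Npc2 (-0.73). Tfeb and Lipa fell further in WT, and Ctsc rose further there.

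For LTA at 6 h it was more positive in KO for Tfeb (2.65), Lipa (0.91), Gla (0.52), Psap (0.29), Gusb (0.29), Tfe3 (0.28), Neu1 (0.27), Ctsd (0.26), Ctsl (0.26), Gaa (0.25), Tpp1 (0.22), Scarb2 (0.21), Ctsa (0.20), Hexa (0.20) and Lgmn (0.15). Ctsc (-0.66) was more negative.

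The difference of LPS against LTA at 6 h was more negative in KO for Scarb2 (-0.71), Npc2 (-0.57), Gla (-0.44), Grn (-0.40), Ctsc (-0.39), Lamp2 (-0.34), Psap (-0.25) and Ctsl (-0.22), and more positive for Mcoln1 (0.35). In WT these genes, Mcoln1 apart, were higher with LPS than with LTA.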

How the results depend on the processing

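Counts of called members are given as higher or lower, under TMM unless total counts are named. With upper quartile factors, WT with LPS at 6 h gave 21 lower, WT with LTA 3 higher, KO with LPS 3 higher and 17 lower, and the LPS interaction 14 higher and 5 lower. The same factors gave 7 lower for KO against WT with LTA at 2 h and 4 lower for LPS against LTA in WT at 6 h. They turned these signs: with LPS in WT, Ctsb -0.11, Ctsl -0.13, Ctss -0.0816, Man2b1 -0.0364, Lamp1 -0.14 and Cd63 -0.11; with LTA in WT, Lamp1 -0.10 and Cd63 -0.093; and Man2b1 in KO against WT with LPS, 0.0034. Relative log expression factors gave 15 higher in WT with LPS and 6 lower for KO against WT with LTA at 2 h. DESeq2 gave 14 and 5 for these. For LPS against LTA DESeq2 gave 1 lower in WT and 1 lower in KO at 6 h and 2 higher in KO at 2 h. With each library set alone, KO against WT with LTA at 2 h gave 6 lower, LPS against LTA in WT at 6 h 1 lower, and in KO at 2 h 0 higher. Without the filter the LTA interaction gave 3 lower and LPS against LTA in KO at 2 h 0 higher.

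Under total counts DESeq2 gave 4 higher for KO against WT with LPS at 2 h, and 2 lower for LPS against LTA in KO at both 6 h and 2 h. Without the filter, KO against WT with LTA at 2 h gave 2 higher, LPS against LTA in KO at 6 h 0 lower, and the genotype difference of the ligand contrast 1 higher. The cause of these differences was not tested.

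Leaving out 1 replicate at a time gave 3 to 6 higher in KO with LPS at 6 h, 3 to 6 lower in KO against WT with LPS at 2 h and 1 to 3 lower with LTA at 2 h. For LPS against LTA it gave 0 to 1 lower in WT at 6 h, 0 to 1 higher in KO at 6 h (1 without KO LPS replicate 1), and 0 to 1 higher and 0 to 1 lower in KO at 2 h. The LTA interaction ranged from 9 to 16 higher. Under total counts the ranges were 2 to 4 higher with LPS and 4 to 9 lower with LTA for KO against WT at 2 h, 0 to 2 lower at 6 h and 1 to 2 lower at 2 h for LPS against LTA in KO, and 1 to 2 higher for the genotype difference of the ligand contrast.

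The replicate block changed no count by over 1.5 times: with the animal as block all 30 counts of calls stayed within it under each scaling, and with the replicate number all 10 did. With the animal block WT with LPS at 6 h gave 9 higher and 12 lower, and KO with LPS 5 and 10. The depth of the 2 h set limits low genes such as Tfeb and Ctsk.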

Other observations

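Of 22 autophagy genes, 11 rose and 10 fell in WT with LPS under TMM (median 0.17), against 5 and 16 under total counts (median -0.52). Of all tested genes 36.6% rose and 36.1% fell under TMM, and 16.2% and 63.7% under total counts. In KO with LPS 6 rose and 6 fell, beside 25.7% and 26.6% of all genes. The same shares of all genes stand beside the 2 lists that follow. Sqstm1, the p62 receptor, rose in WT by 1.78 ± 0.04 with LPS and 2.52 ± 0.04 with LTA and in KO by 1.71 ± 0.04 and 1.95 ± 0.04. Optn, optineurin, rose in WT with LPS by 1.86 ± 0.11, and its KO value of 0.16 ± 0.13 was not called. Atg16l1 rose by 1.30 ± 0.07 in WT and 0.45 ± 0.07 in KO. Ulk2, a kinase that starts autophagy, fell by -1.67 ± 0.11 and -0.69 ± 0.08.

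Of 18 genes for sorting to lysosomes, 9 rose and 9 fell in WT with LPS under TMM (2 and 15 under total counts), and 6 and 7 in KO. M6pr, a mannose 6-phosphate receptor, rose by 1.07 ± 0.04 in WT and 0.60 ± 0.04 in KO under TMM. Under total counts it rose by 0.38 ± 0.04 and 0.41 ± 0.04, and the genotype difference in response was not called. Gga2, an adaptor of the trans-Golgi network, fell by -2.19 ± 0.11 and -0.49 ± 0.08. Gga1 was 0.74 ± 0.05 in WT under TMM and 0.05 ± 0.05, not called, under total counts. Ap1s1 was 0.56 ± 0.05 under TMM and -0.14 ± 0.04 under total counts.

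Of 7 cathepsin inhibitors, Cst7 among them, 3 rose and 2 fell in WT with LPS under TMM (1 and 5 under total counts). Cstb, cystatin B, was 0.44 ± 0.04 in WT and 0.39 ± 0.04 in KO with LPS, but -0.26 ± 0.04 in WT under total counts. Cst3, cystatin C, was 0.08 ± 0.04 in WT with LPS under TMM, not called, but -0.62 ± 0.04 under total counts, called. Serpinb6a fell by -0.75 ± 0.04 in WT and -0.52 ± 0.04 in KO. Serpinb1a, a low gene with wide errors, had -1.51 ± 0.56 in WT and -1.26 ± 0.34 in KO.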
